A study of Mus musculus with 2 samples.

Results

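Classical monocytes were examined in injured mouse lung, in single cells from *Pclaf* WT and *Pclaf* KO animals that had received bleomycin 1 week earlier. A barcode counted as a classical monocyte when it held at least 1 UMI (unique molecular identifier, 1 counted RNA molecule) of *Tyrobp* or *Fcer1g*, which encode adaptors of myeloid receptors, at least 1 UMI of *Ly6c2*, and at least 1 of *Ccr2*, *Vcan* and *F13a1*. It also had to hold fewer than 10 *Spp1* UMIs per 10000 and 0 UMIs of *C1qa*, *Retnlg*, *Cd3e*, *Cd79a*, *Nkg7*, *Flt3* and *Treml4*, which mark macrophages, neutrophils, lymphocytes, dendritic cells and nonclassical monocytes. Of 45824 barcodes with more than 200 and fewer than 5000 genes and under 20% mitochondrial UMIs, 317 met these conditions, 286 in the WT library and 31 in the KO library. The members were chosen on measured values, so their levels of these 14 genes are given as a description only.

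There was 1 single-cell library per genotype, made with droplets that capture the 3' end of each transcript. The mice were 8 to 10 weeks old, the *Pclaf* KO line was an established whole-animal model, and both groups received bleomycin, at 1.35 U/kg by the deposited design. The lungs were digested, stained for CD31, CD45 and EpCAM, and sorted for epithelial cells, so monocytes are cells that the sort aimed to leave out. Since neither genotype has a replicate, no test was made, and every interval below is a 95% interval that covers counting error only. A difference between the libraries cannot be told apart from a difference between animals, sorts or library preparations.

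Monocytes form in the bone marrow and reach tissues through the blood. Classical monocytes carry Ly6C at high levels on the surface and the chemokine receptor CCR2, which lets them leave the marrow toward CCL2 and enter injured tissue, where they can mature into macrophages or take up dendritic cell-like, antigen-presenting features. Nonclassical monocytes have little Ly6C, patrol the inner wall of vessels and depend on the transcription factor NR4A1. In injured lung, monocyte-derived macrophages are known to take part in clearance, repair and fibrosis.

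*Ly6c2*, the gene that decides membership most often, has a close neighbor, *Ly6c1*, which endothelial cells express. The first coding exons are shown because they hold the densest differences between the pair, whose transcripts share most of the 3' sequence that these libraries count. *Ly6c2* lies on the minus strand of chromosome 15 at chr15:75108158-75111970 and *Ly6c1* at chr15:75044018-75048830 (GRCm38, GENCODE annotation). The exons lie at chr15:75111598-75111667 and chr15:75048442-75048511, and capitals mark the 6 of 70 bases at which they differ.
Ly6c2: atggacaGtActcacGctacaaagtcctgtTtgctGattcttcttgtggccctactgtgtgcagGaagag
Ly6c1: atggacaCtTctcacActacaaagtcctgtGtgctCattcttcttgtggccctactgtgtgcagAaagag
From the stop codon to the end of the shorter transcript, 7 of 382 bases differed, and the longest identical run was 124 bases. How UMIs divide between *Ly6c2* and *Ly6c1* is therefore uncertain. *Ly6c1* had a UMI in 69 of 286 WT members and 5 of 31 KO members.

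*Pclaf*, the gene deleted in the KO mice and a cell cycle gene that binds the sliding clamp PCNA, was low in WT members and absent from KO members. The 286 WT members held 60 *Pclaf* UMIs in 11 cells, 48.8 CPM (UMIs per 1000000; 37.2 to 62.8), and 1 cell held 24 of them. The 31 KO members held 0 UMIs. At a floor of 3 UMIs in the KO sum, *Pclaf* was 4.51-fold lower in KO, a value that depends on that floor. With no *Spp1* limit in the rule the direction turned, to a log2 ratio of 0.49 from 20 KO and 61 WT UMIs. The library labelled KO was not free of the transcript, since all of its kept cells held 529 *Pclaf* UMIs, 5.19 CPM, against 3763 UMIs and 39.3 CPM in WT. The sources used here do not give the deleted part, so a 3' tag may lie outside it and then says nothing about the genotype.

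The 286 WT members were 0.947% of kept WT cells (0.841 to 1.06), and the 31 KO members were 0.198% of kept KO cells (0.135 to 0.281). The libraries also differed in how many myeloid cells they held at all, since 14529 WT cells (48.1% of those kept) and 1293 KO cells (8.27%) had *Tyrobp* or *Fcer1g*. Within those cells the shares lay close, at 1.97% (1.75 to 2.21) in WT and 2.40% (1.64 to 3.39) in KO, and the intervals overlapped. Without the epithelial-rich members described below, the shares were 1.93% and 1.55% (0.947 to 2.38) of the same myeloid cells, and the intervals still overlapped. Those myeloid cells were not cut at the same limit. Their upper quartiles were 1783 epithelial marker UMIs per 10000 in KO and 13.6 in WT. The order of the last 2 shares therefore cannot be read. In a library sorted for epithelial cells, these shares also reflect how many immune cells passed the sort, and the 2 cannot be told apart.

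The *Ly6c2* condition shaped the membership most. In WT, 936 cells met every other condition and lacked only *Ly6c2*, 120 lacked only the 3 further markers, and 76 failed only by a *C1qa* UMI. *Flt3*, *Nkg7* and *Treml4* alone kept out 65, 53 and 31 WT cells. In KO, 87 cells lacked only *Ly6c2* and 43 lacked only the 3 markers. At the *Spp1* limit, the WT members just inside held 7.06 to 8.38 *Spp1* UMIs per 10000 and the first cell outside held 12.5, while in KO the highest member was at 0.457 and the first cell outside at 10.7.

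Most members rested on few *Ly6c2* molecules. A single *Ly6c2* UMI was all that 99 of 286 WT members had (34.6%), 126 had 3 or more, and the highest cell had 43. In KO, 4 of 31 members had a single UMI and 20 had 3 or more. *Ccr2* was the marker most often seen beside it, in 264 WT members (92.3%) and 29 KO members (93.5%). *F13a1*, the coagulation factor XIII A subunit, was seen in 204 WT and 23 KO members, and *Vcan*, the proteoglycan versican, in 74 and 11. All 3 were seen in 55 WT members, and 68 WT members had only *Ccr2*. With each cell cut to 1000 random UMIs before the rule was applied, 152 WT and 14 KO cells met it, of which 113 and 11 were members at full depth.

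Members varied in depth within each library and were deeper in KO. WT members held 618 to 16825 UMIs with a median of 3613 and a median of 1570.5 genes, and KO members 2719 to 28269 with a median of 5783 and 1972 genes. At 1000 UMIs per cell, the medians were 619 genes over 284 WT cells and 567 over 31 KO cells. The libraries shared 163 deposited barcodes, but no barcode was a member in both.

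The label was checked against genes that the rule did not use. *Plac8*, a small protein abundant in Ly6C-high monocytes, was at 2644 CPM in WT members, and after thinning to 1000 UMIs it was seen in 80.6% of them (75.5 to 85.1). By the same measure it was seen in 65.0% of nonclassical monocytes, 5.83% of C1q macrophages, 3.14% of *Spp1*-high macrophages and 14.7% of lymphocytes of the WT library. *Lyz2*, the myeloid lysozyme, was at 15890 CPM, and *Ptprc*, which encodes CD45, had a UMI in 266 of 286 WT members (93.0%) and 27 of 31 KO members (87.1%). *Epcam*, the positive marker of the sort, had one in 10 WT members (3.50%) but in 14 KO members (45.2%).

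Markers of other kinds were low in sum but not at 0, and single members stood apart. Some WT members held *Plac8* but 0 *Lyz2* UMIs, such as 3 with 27, 24 and 16 *Plac8* UMIs. In WT members, the 13 neutrophil markers summed to 302 CPM over 9 genes with a UMI, and the 10 lymphocyte markers to 216 CPM, of which *Ighm* gave 128. *Siglech*, a marker of plasmacytoid dendritic cells, had 110 UMIs in 12 WT members and 0 in KO. Such dendritic cells were not among the kinds in which *Plac8* was measured, so *Plac8* cannot set members apart from them. Whether the members with *Siglech* or without *Lyz2* are monocytes was not tested. The endothelial markers summed to 969 CPM in WT and 144 in KO. A single WT member held 95.1% of the *Hbb-bs* UMIs. Scrublet, which scores barcodes against artificial cell pairs, called 35 of 286 WT members (12.2%) and 5 of 31 KO members (16.1%) doublets, against 7.76% and 2.70% of all kept cells.

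Epithelial RNA separated the KO members into 2 sets. Over 14 epithelial markers, such as *Sftpc* and *Sftpa1* of alveolar type 2 cells and *Scgb1a1* of club cells, 20 KO members held 24.0 to 69.9 UMIs per 10000, and the other 11 held 726 to 3694. The 11 were also deep, with a median of 15938 UMIs against 4413 for the 20. In WT, 280 members held at most 171 per 10000 and 6 held 553 to 2264. The gap falls at 200 per 10000 in both libraries, a limit chosen after seeing these values. Scrublet called 4 of the 11 KO members above the limit and 1 of the 20 below it. The part that mixed droplets have in the 11 barcodes was not tested further.

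**Figure D1:**
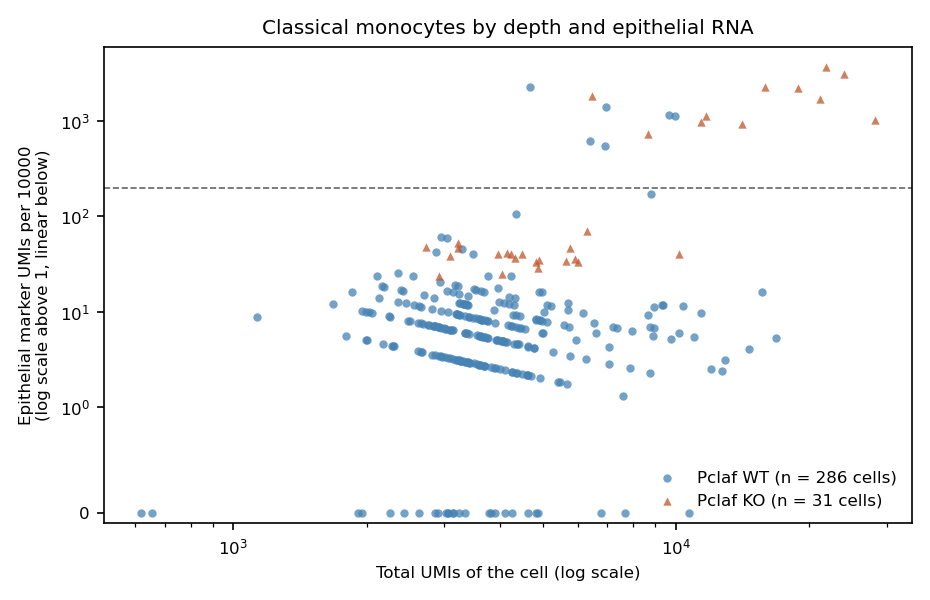
Each classical monocyte by its total UMIs (x axis, log scale) and its epithelial marker UMIs per 10000 (y axis, log scale above 1 and linear below), with 286 *Pclaf* WT cells as circles and 31 *Pclaf* KO cells as triangles. The dashed line marks 200 per 10000; 11 KO and 6 WT cells lie above it, and the KO cells below it lie between 24.0 and 69.9, where few WT cells are found.

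With all members summed, epithelial markers were higher in KO. Of 4301 genes with at least 10 expected UMIs in the smaller library, 193 (4.49%) were at least 2-fold higher in KO and 766 (17.8%) at least 2-fold lower. With the mitochondrial, ribosomal protein and epithelial genes left out of the totals, the counts were 237 and 458. All 14 epithelial markers that were compared were at least 2-fold higher in KO, with a median log2 ratio of 3.87, and they made up 129900 CPM in KO against 4972 in WT. The 10 highest genes, among them *Scgb3a2* (log2 8.07), *Scgb1a1* (7.99), *Cyp2f2* (6.90), *Retnla* (6.82), *Lyz1* (5.09), *Krt18* (4.85) and *Cldn3* (4.56), are known from airway and alveolar epithelium.

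The next comparison therefore left out the members at or above the limit, which kept 280 WT cells with 1185112 UMIs and 20 KO cells with 94862 UMIs. Of 1490 genes compared, 12 (0.805%) were at least 2-fold higher in KO and 179 (12.0%) at least 2-fold lower, with a median log2 ratio of -0.11 over all 1490. The minimum asks for 135 UMIs over both libraries, which WT, with far more cells, supplies more easily than KO, so genes high in WT pass it more readily than genes high in KO. With no minimum the counts were 4058 higher and 2801 lower, and no direction of the whole comparison can be read from either pair. The epithelial markers still differed, at 3974 CPM in KO and 884 in WT. *Sftpc* was at 1307 against 162 CPM (log2 3.01) and *Scgb1a1* at 1370 against 235 CPM (2.55). Lymphocytes of the same libraries (a UMI of *Cd3e*, *Cd79a* or *Nkg7* and no *Lyz2*, 2355 WT and 80 KO cells), which should lack both, showed ratios of 3.26 and 2.61. Their ratios are given as a background beside some of the genes named here, though no limit on epithelial RNA was set for them.

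Under the epithelial limit, classical monocyte genes lay close together in the 2 libraries. *Ly6c2* was at 1033 CPM in KO and 875 in WT (log2 0.24, -0.07 to 0.54), *Ccr2* at 843 and 827 (0.03, -0.32 to 0.36), *F13a1* at 854 and 675 (0.34, -0.01 to 0.67) and *Vcan* at 158 and 129 (0.29, -0.58 to 1.06). These 4 genes chose the cells. Of 14 classical monocyte genes outside the rule, 13 were compared, 1 was at least 2-fold higher and none was 2-fold lower, with a median of 0.30. *Plac8* was at 3247 and 2704 CPM (0.26, 0.09 to 0.43) and *Chil3*, a chitinase-like secreted protein, at 854 and 637 (0.42, 0.07 to 0.75). The exception was *Hp*, haptoglobin, at 622 and 250 CPM (1.32, 0.89 to 1.72), and lymphocytes showed 1.68 for it. With all members, 4 of the 14 genes were at least 2-fold lower in KO and 2 higher, beside 17.8% and 4.49% of all genes. Their median was then -0.77, so its direction turned.

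The shared myeloid genes showed no 2-fold difference under the limit either. With all members, 5 of 12 such genes were at least 2-fold lower in KO and none higher, with a median of -0.94. Of all genes 17.8% were then lower. Under the limit 11 of the 12 monocyte and macrophage genes were compared, and the median was 0.02. *Csf1r*, the receptor for the survival factor CSF1, was at 285 CPM in KO and 284 in WT (0.00, -0.62 to 0.57), and *Cx3cr1*, the fractalkine receptor, at 221 and 219 (0.02, -0.70 to 0.66). *Spi1*, the myeloid transcription factor PU.1, was at 601 and 353 (0.77, 0.34 to 1.17). *Lyz2* was at 29980 and 15700 CPM (0.93), and since type 2 cells also express it and the lymphocytes were defined by its absence, no background value could be set beside it.

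MHC class II genes were lower in KO. These genes encode the chains that present peptides to CD4 T cells and the proteins that load them. Of 7 listed, 6 were compared, and 4 were at least 2-fold lower in KO and none higher, beside 12.0% and 0.805% of all genes. Their median was -2.63, beside -0.11 over all genes. Of the lists compared, those of endothelial and of erythroid and platelet markers had lower medians, at -4.63 and -5.56. *H2-Aa* gave 3 UMIs in 20 KO cells and 1326 in 280 WT cells, 31.6 against 1119 CPM (log2 -5.14, interval -7.42 to -3.59). *H2-Eb1* gave 1 UMI against 1025, 10.5 and 865 CPM (-6.36, -11.7 to -3.88). For *H2-Ab1* the sums were 11 against 1462 UMIs, 116 and 1234 CPM (-3.41, -4.42 to -2.57). These genes passed the minimum through their WT UMIs.

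The invariant chain differed less, and the intervals of the peptide loaders held 0. *Cd74*, the invariant chain, was at 727 CPM in KO and 2621 in WT (-1.85, -2.21 to -1.50). *H2-DMa* and *H2-DMb1*, the DM loading factors, were at 380 against 283 CPM (0.43, -0.11 to 0.92) and 158 against 132 CPM (0.26, -0.62 to 1.02). In lymphocytes, which include B cells, the ratios of *H2-Aa*, *H2-Ab1*, *H2-Eb1* and *Cd74* were -0.04, 0.08, 0.15 and 0.12. Since these lymphocytes held 261 *H2-Aa* UMIs in KO and 6962 in WT, their ratios are no background for these genes. The list summed to 1423 CPM (1193 to 1684) in KO and 6307 CPM (6165 to 6452) in WT.

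*H2-Aa* was detected in a minority of WT cells. After thinning to 1000 UMIs, *H2-Aa* was seen in 71 of 278 WT members (25.5%, 20.5 to 31.1) and in 0 of 20 KO members, which at that depth allows a share of up to 16.8%. At full depth it had a UMI in 125 of 280 WT members (44.6%) and 2 of 20 KO members. Per cell, the 7 genes took a median of 10.0 UMIs per 10000 in WT and 9.56 in KO, but the 90th percentiles were 202 and 21.3 and the highest cells 590 and 107. The medians lay side by side, and the highest KO cell was below the 90th percentile of WT. With the epithelial-rich members included, the ratio of *H2-Aa* was -1.39 and the list median -1.09. Other myeloid cells under the same epithelial limit, set after seeing the data, also had less *H2-Aa* in KO. It was at 2611 CPM in KO and 4269 in WT C1q macrophages, at 213 and 939 in *Spp1*-high macrophages, and at 367 and 721 in nonclassical monocytes. Their MHC class II lists were at 16620 against 23670, 1246 against 5171 and 2571 against 4191 CPM. With all cells, the list in nonclassical monocytes was at 5526 CPM in KO and 4079 in WT, so its direction turned.

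Markers of dendritic cells, which carry much MHC class II, moved with these genes. Of 8 such markers 7 had UMIs in the 280 WT members, 211 in all or 178 CPM, with *Siglech* the most abundant, and none had one in the 20 KO members, which allows up to 38.9 CPM. The 39 WT cells with a marker UMI held the MHC class II list at 12440 CPM and the 241 without at 4919 CPM. Without the 39 cells, a comparison added after seeing the data, the log2 ratio of the summed list was -1.79 (-2.05 to -1.54) against -2.15 with them, and 4 of 6 genes were again at least 2-fold lower.

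MHC class II genes share promoter elements that the coactivator CIITA acts through, of which the Y box has the letters CTGATTGG. Promoters, from 250 bases before to 50 after the gene start, were read from RefSeq on GRCm38.p6 for the 4 of 7 listed genes that matched, and 2 of the 4 held the letters on either strand. Both are shown, with the letters in capitals, because they belong to the genes with the largest differences. The H2-Aa promoter lies on the minus strand at chr17:34287774-34288073 and the H2-Eb1 promoter on the plus strand at chr17:34305617-34305916.
H2-Aa: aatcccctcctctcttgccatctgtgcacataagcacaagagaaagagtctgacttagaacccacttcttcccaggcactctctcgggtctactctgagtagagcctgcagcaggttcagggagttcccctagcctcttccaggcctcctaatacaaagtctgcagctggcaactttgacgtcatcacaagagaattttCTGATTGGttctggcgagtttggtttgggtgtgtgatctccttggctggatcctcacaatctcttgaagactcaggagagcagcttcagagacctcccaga
H2-Eb1: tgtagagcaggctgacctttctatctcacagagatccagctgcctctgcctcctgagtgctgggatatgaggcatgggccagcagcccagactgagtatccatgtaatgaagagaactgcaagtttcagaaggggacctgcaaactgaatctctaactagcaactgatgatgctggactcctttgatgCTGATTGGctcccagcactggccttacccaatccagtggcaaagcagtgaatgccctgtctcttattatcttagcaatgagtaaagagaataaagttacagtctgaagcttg
The letters start at -51 and -62 from the gene start. The promoters of *H2-DMa* and *H2-DMb1* did not hold these exact letters in this window, though that of *H2-DMb1* held the near match gtgattgg. *H2-Ab1* and *Cd74*, also lower in KO, were not among the matched genes, and a link to the ratios was not tested. Of all 32851 promoters in the table, 1346 (4.10%) held them, and a match is a description of sequence only.

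Of 18 macrophage maturation genes 8 were compared, and 4 were at least 2-fold lower in KO and none higher, beside 12.0% and 0.805% of all genes. Their median was -0.82, beside -0.11 over all genes. The 4 were *Ctsl*, with 1 UMI against 179 (-3.84, -9.15 to -1.34), *Cd63*, with 1 against 160 (-3.68, -8.99 to -1.18), *Ctsd*, at 179 against 514 CPM (-1.52, -2.31 to -0.83), and *Fabp5*, at 200 against 416 CPM (-1.05, -1.80 to -0.40). They encode lysosomal proteases, a lysosomal membrane protein and a lipid carrier. *Ctsl* and *Cd63* passed the minimum through their WT UMIs. A single WT cell held 45.2% of the *Fabp5* UMIs, and without it *Fabp5* was at 230 CPM in WT (-0.20, -0.96 to 0.47) and no longer 2-fold lower, while without its own richest cell *Ctsd* was at -1.17 (-1.96 to -0.47). Under the epithelial limit, alveolar macrophage markers were lower in KO too. The 5 markers had 87 UMIs in the 280 WT members (73.4 CPM) and 0 in the 20 KO members. The KO value of 0 allows up to 38.9 CPM. Over all members they did not differ, at 70.75 CPM in WT and 72.09 in KO. The highest WT cell held 378 maturation UMIs per 10000 against 92.4 in KO. *Spp1*, which the rule limits, had a UMI in 61 of all 286 WT members and 1 of all 31 KO members, a description only. The part of macrophage RNA in the result was not tested. In lymphocytes the ratios were 0.73 for *Ctsl*, 1.19 for *Cd63*, -0.29 for *Ctsd* and -0.04 for *Fabp5*. *Apoe*, the most abundant of the list, was at 1391 and 1767 CPM (-0.34, -0.61 to -0.09). *Fth1*, the heavy chain of ferritin, was at 2983 and 5914 CPM (-0.99, -1.16 to -0.82), whereas the light chain *Ftl1* was at 4290 and 3461 (0.31, 0.16 to 0.46), and lymphocytes showed 0.32 and 0.61.

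Interferon-stimulated genes and the S100 calcium-binding proteins showed no 2-fold difference under the limit. With all members, 4 of 12 interferon-stimulated genes (median -0.92) and 2 of 5 S100 genes (-0.51) were at least 2-fold lower, none higher. Of all genes 17.8% were then lower. Under the limit 9 of 19 interferon-stimulated genes were compared, with a median of 0.13. *Ifitm3*, which blocks virus entry, was at 4881 CPM in KO and 3377 in WT (0.53, 0.39 to 0.67). *Bst2*, which tethers virions, was at 179 and 330 (-0.88, -1.67 to -0.18). Lymphocytes showed -1.14 for *Ifitm3* and -1.16 for *Bst2*. The 4 S100 genes compared had a median of 0.42, with *S100a6* at 3921 and 2374 CPM (0.72, 0.56 to 0.88) beside 1.33 in lymphocytes. Of 21 chemokine and cytokine genes 6 were compared, and 2 were at least 2-fold lower and none higher, beside 12.0% and 0.805% of all genes. These were *Ccl3* (5 against 171 UMIs, -1.45, -3.09 to -0.20) and *Ccl4* (10 against 291 UMIs, -1.22, -2.29 to -0.32), both inflammatory chemokines. Both passed the minimum through their WT UMIs. In lymphocytes, some of which also express them, the ratios went the other way, at 2.25 and 2.15. *Il1b*, which encodes interleukin-1 beta, was at 696 and 790 CPM (-0.18, -0.57 to 0.18).

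Of the 1490 genes, 16 had no UMI in the 20 KO members, among them 3 endothelial markers and 1 erythroid marker, and 0 had no WT UMI. All 16 passed the minimum through their WT UMIs alone, so their number has no counterpart on the other side. *Calcrl*, *Epas1*, *Ly6a* and *Ptprb*, which endothelial cells express, had 470, 410, 354 and 267 UMIs in WT. At a floor of 3 UMIs in the KO sum they were 12.5-fold, 10.9-fold, 9.44-fold and 7.12-fold lower. Their intervals reached log2 -3.345, -3.147, -2.934 and -2.524, which are smaller differences than those at the floor. All 5 endothelial markers that were compared and all 4 erythroid and platelet markers were at least 2-fold lower, beside 12.0% of all genes. For the erythroid and platelet markers, 1 WT cell held most of the UMIs. Without it the WT list fell from 2615 to 196 UMIs and none of its genes reached the minimum for comparison, while the summed list was at a log2 ratio of -1.40 (-2.86 to -0.25) against -5.13 with that cell. In lymphocytes *Calcrl* had a ratio of -3.81 and *Epas1* of -5.42, so a library difference in the same direction stood there too. The lymphocytes were chosen with no limit on endothelial or epithelial RNA. Scrublet called 258 of 2355 WT lymphocytes and 0 of 80 KO ones doublets. The part that endothelial or red cell RNA in WT droplets has in these values was not tested.

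**Figure D2:**
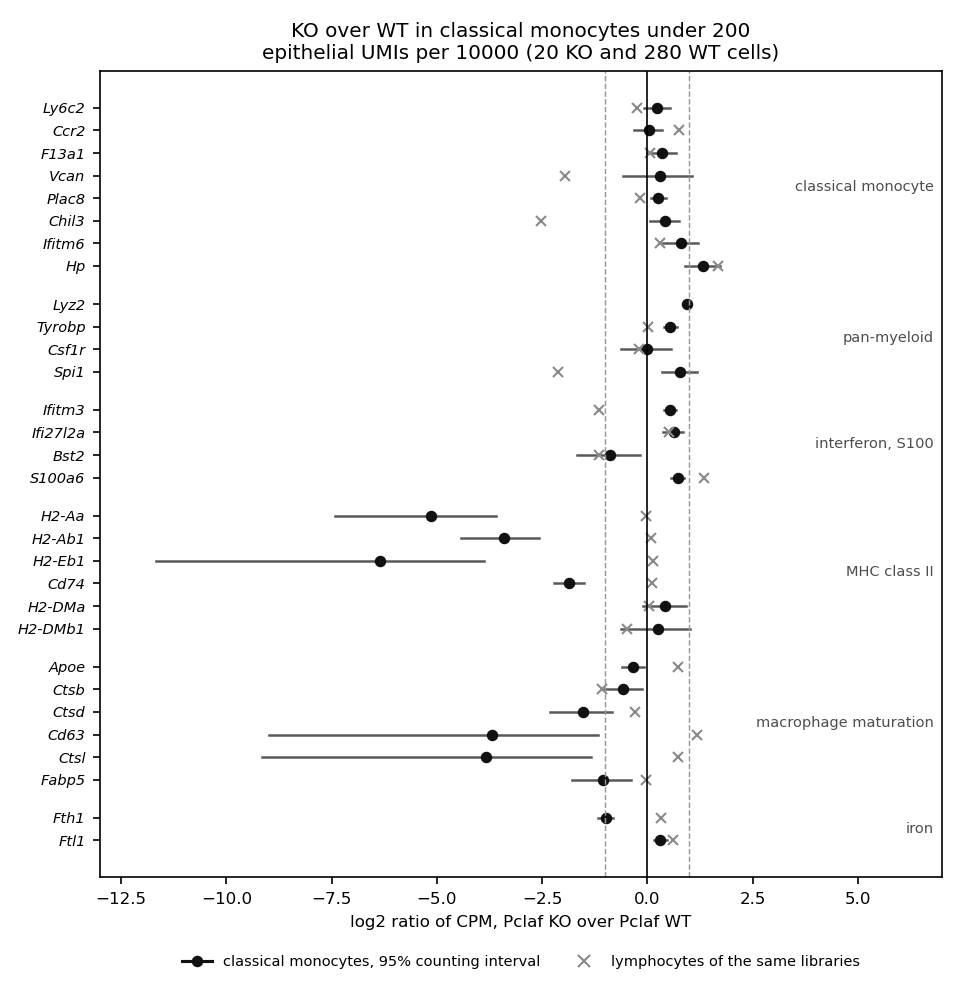
Log2 ratio of CPM, *Pclaf* KO over *Pclaf* WT, for named genes in the 20 KO and 280 WT classical monocytes under 200 epithelial UMIs per 10000, as points with 95% counting intervals, beside the ratio in lymphocytes as crosses (0.5 UMIs added where a sum was 0; none for *Lyz2*). Dashed lines mark 2-fold, and *H2-Aa*, *H2-Ab1*, *H2-Eb1* and *Cd74* lie left of them. Their crosses lie near 0, but the lymphocytes include B cells with these RNAs, so those crosses are no background. The classical monocyte genes other than *Hp* lie between the dashed lines.

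WT members were next set beside 3 other myeloid kinds of the same library, each defined by its own genes, to show where they differ. C1q macrophages (1841 WT and 124 KO cells) had *C1qa* and 1 of *C1qb* and *C1qc*. Nonclassical monocytes (535 and 27 cells) had at least 2 of *Treml4*, *Ace*, *Cd300e* and *Adgre4* and no *Ly6c2*. *Spp1*-high macrophages (1427 and 100 cells) had *Spp1* at 10 or more per 10000 UMIs. KO values, which include the 11 epithelial-rich members unless stated otherwise, are given beside the WT values where they were measured on enough UMIs, and genes that define either side are named as such.

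Against C1q macrophages, 323 of 9531 genes (3.39%) were at least 2-fold higher in classical monocytes and 921 (9.66%) at least 2-fold lower. Of the 14 classical monocyte genes outside the rule 11 were higher, with a median of 1.83 against -0.12 over all genes. *Plac8* was at 2644 against 90.4 CPM (4.87, 4.76 to 4.99; 5.68 in KO) and *Ifitm6* at 338 against 9.45 (5.16, 4.81 to 5.53; 6.66 in KO). *Cd177*, better known from neutrophils, was at 77.3 against 1.42 CPM (5.77), and *F5*, coagulation factor V, at 48.8 against 2.25 (4.44).

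Among the lower genes were those of antigen presentation and macrophage maturation. All 7 MHC class II genes and 12 of 18 maturation genes were at least 2-fold lower, with medians of -1.85 and -1.60. *Ccl8* and *Ccl12*, monocyte-attracting chemokines, gave 2 UMIs each in the members (-7.57 and -6.38). *Cd163*, the haptoglobin-hemoglobin scavenger receptor, gave 0 UMIs against 316. It was 15.3-fold lower at a floor of 3 UMIs, and its interval reached log2 -3.629. The 10 lowest genes also included *Col14a1*, a fibroblast collagen (-6.39), and the airway genes *Scgb3a2* (-5.96) and *Bpifa1*. *Bpifa1* gave 0 UMIs, was 9.20-fold lower at a floor of 3 UMIs, and had an interval that reached log2 -2.89. All 5 mesenchymal markers compared were lower, with a median of -2.54. *Mrc1*, the mannose receptor, was at 102 against 483 CPM (-2.25, -2.52 to -1.99), *Apoe* at 1747 against 6390 (-1.87) and *Cd74* at 2609 against 9492 (-1.86). Of 15 cell cycle genes 7 were lower and none higher, with *Top2a* at 32.5 against 85.8 CPM (-1.40, -1.90 to -0.94).

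Against nonclassical monocytes, 369 of 9286 genes (3.97%) were higher and 745 (8.02%) lower by at least 2-fold, and with TMM scaling 450 and 564. *F13a1* and *Ccr2*, used by the rule, were at 663 against 45.7 and 814 against 149 CPM. Outside the rule, *Fn1*, fibronectin, was at 1281 against 217 CPM (2.56, 2.40 to 2.72; 1.50 in KO), *Thbs1*, thrombospondin 1, at 377 against 72.3 (2.38) and *Cd14*, the lipopolysaccharide co-receptor, at 198 against 44.1 (2.17). *Plac8* differed less, at 2644 against 1525 CPM (0.79), and *Chil3* did not, at 632 against 614 CPM (0.04, -0.09 to 0.18).

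Of the 11 nonclassical markers, 10 were at least 2-fold lower in classical monocytes, with a median of -2.70, although 4 of them defined the other side. Among those that did not, *Itgal*, the integrin LFA-1 alpha chain, was at 207 against 813 CPM (-1.98), *Spn* at 36.6 against 245 (-2.74) and *Cd36*, a lipid scavenger receptor, at 277 against 1008 (-1.87). *Nr4a1*, the factor that nonclassical monocytes depend on, was at 517 against 710 CPM (-0.46, -0.60 to -0.32), short of 2-fold. *Fcgr4*, an Fc receptor, was at 23.6 against 177 CPM (-2.91).

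Against *Spp1*-high macrophages, 700 of 8974 genes (7.80%) were higher and 851 (9.48%) lower by at least 2-fold, and with TMM scaling 519 and 1150. *Ifitm6* was at 338 against 3.67 CPM (6.53, 6.005 to 7.092), *Plac8* at 2644 against 43.2 (5.94) and *Klf2*, a factor of quiescent circulating cells, at 451 against 83.1 (2.44). Of 18 maturation genes 17 were lower and none higher, with a median of -2.44. *Gpnmb* was at 38.2 against 886 CPM (-4.54), *Ctsd* at 509 against 6972 (-3.78) and *Fabp5* at 429 against 3380 (-2.98). Both ferritin chains were lower, *Fth1* at 5861 against 21390 CPM (-1.87) and *Ftl1* at 3433 against 15170 (-2.14). *Chil3*, listed as a classical monocyte gene, was lower too, at 632 against 2157 CPM (-1.77, -1.88 to -1.67).

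The interferon-stimulated list was highest in classical monocytes. It summed to 6371 CPM (6231 to 6514) in WT classical monocytes, 3612 in nonclassical monocytes, 2091 in C1q macrophages and 1400 in *Spp1*-high macrophages, with no overlap of intervals. In KO the sums were 4228, 3622, 1053 and 833 CPM, in the same order. Under 200 epithelial UMIs per 10000 in every kind, they were 6518, 3708, 2138 and 1416 CPM in WT and 8465, 4442, 1820 and 944 CPM in KO. The order stayed, but KO classical monocytes were then above the WT ones (7889 to 9071 against 6373 to 6665) and no longer below them. *Ms4a4c* stands both in this list and among the classical monocyte genes outside the rule. It was at 355 CPM in WT members and 10.3 in WT *Spp1*-high macrophages, and sums without it were not made. *Ifitm3* was the most abundant gene of the list in WT members, at 3319 CPM. Without it, and with all cells, the WT sums were 3052, 1280, 1355 and 997 CPM and the KO sums 1943, 1531, 575 and 638 CPM, so classical monocytes stayed the highest while nonclassical monocytes fell below C1q macrophages in WT and the macrophage kinds changed places in KO. At least 2-fold higher in WT members were 12 of 18 genes compared against C1q macrophages, beside 3.39% of all genes. Against nonclassical monocytes 14 of 18 were higher, beside 3.97%, and against *Spp1*-high macrophages 14 of 17, beside 7.80%. None was lower. These 3 comparisons share the same members and are not independent of each other.

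**Figure D3:**
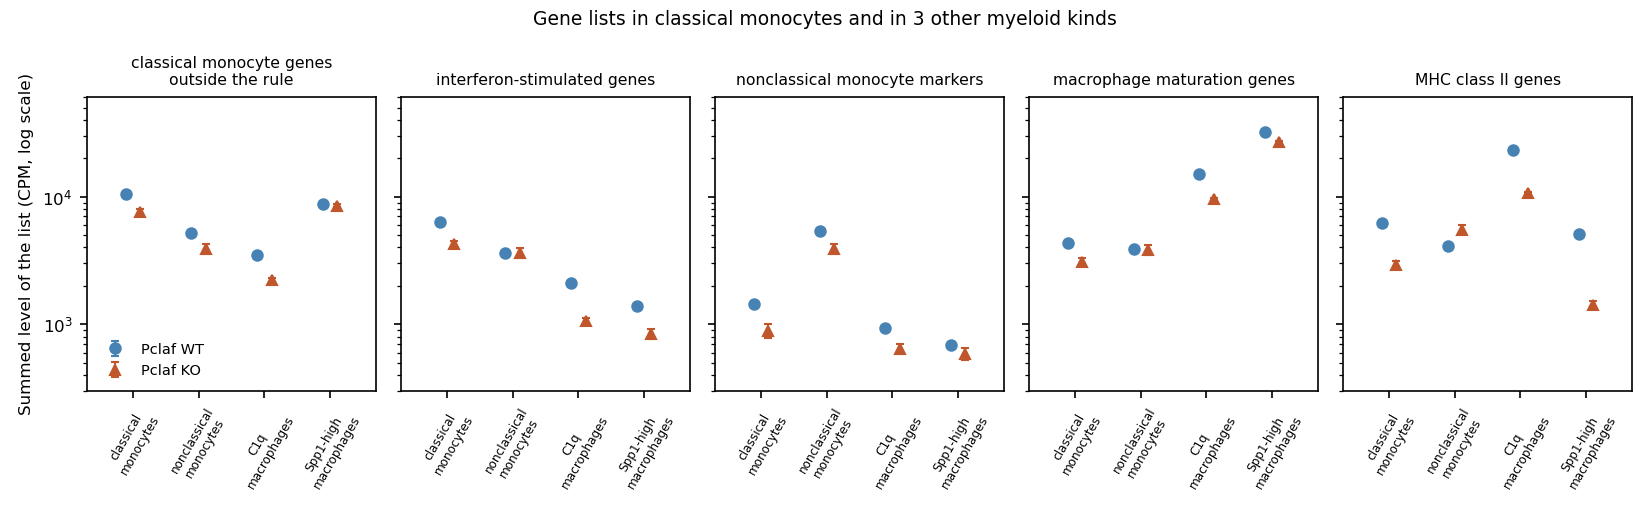
Summed level of 5 gene lists (CPM, log scale) in classical monocytes and 3 other myeloid kinds, with *Pclaf* WT as circles and *Pclaf* KO as triangles and 95% counting intervals that are mostly smaller than the points. Classical monocytes hold the highest level of the interferon-stimulated list in both libraries, at 6371 CPM in WT and 4228 in KO; all members are plotted, and without the epithelial-rich ones the levels were 6518 and 8465, so the order of the libraries turned. *Spp1*-high macrophages hold the highest of the maturation list.

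WT members varied among themselves in MHC class II. To describe this without using the same molecules for ranking and for levels, each cell's UMIs were split at random, one set ranked the cells into 3 bands by *H2-Aa*, *H2-Ab1*, *H2-Eb1* and *Cd74*, and the other set gave the levels. The low band held 96 cells with a score of 0, the middle band 95 cells from 0 to 20.9 per 10000. The high band held 95 cells from 22.7 to 580. Cells tied at 0 thus stood in both the low and the middle band. The median depths of the bands were 3387, 3602 and 3832 UMIs. Bands are ranges of one score and not cell types. Of 3362 genes with at least 20 UMIs over the high and low bands, 251 (7.47%) were at least 2-fold higher in the high band and 228 (6.78%) at least 2-fold lower, with a median of -0.06.

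Of the 14 classical monocyte genes outside the rule, 6 were at least 2-fold lower in the high band and none higher, with a median of -0.94. *Ifitm6* had a high over low ratio of -1.87 (-2.51 to -1.27), *Hp* of -1.42 (-2.10 to -0.77) and *Fn1* of -0.95 (-1.21 to -0.70). In the second random split 5 of the 14 were lower, with a median of -0.88. The genes *F13a1*, *Ly6c2* and *Vcan* chose the members, and their levels are a description. *F13a1* was at 1155 CPM (1003 to 1325) in the low, 677 in the middle and 270 (206 to 346) in the high band. *Ly6c2* was at 1048, 852 and 588 CPM and *Vcan* at 186, 137 and 35.4. *Plac8*, outside the rule, was at 3116, 2629 and 2295 CPM. On the log2 scale the high over low ratios were -2.10 for *F13a1*, -2.39 for *Vcan*, -0.83 for *Ly6c2* and -0.44 for *Plac8*. A second random split gave -2.01, -2.38, -0.96 and -0.53.

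Of 18 macrophage maturation genes 11 were compared, and 7 were at least 2-fold higher in the high band and none lower, with a median of 1.74 (7 and 1.42 in the second split). Markers of other kinds moved with the bands too. Both dendritic cell markers compared were higher, and so were 7 of 9 epithelial markers, with a median of 4.97. Of 4 neutrophil markers 3 were at least 2-fold lower and 1 higher, with a median of -2.05. In the second split 2 of 3 were lower. Of 6 endothelial markers 3 were lower and none higher (1 of 5 lower in the second split). Without the epithelial-rich cells, none of 3 epithelial markers differed by 2-fold. Then 6 of 10 maturation genes were higher and 5 of 14 classical monocyte genes lower. Also lower then were 3 of 4 neutrophil, 2 of 5 endothelial and all 4 erythroid and platelet markers compared. The last count rests on 1 WT cell, without which the erythroid and platelet list fell from 2615 to 196 UMIs. The part of these kinds in the bands was not tested.

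Single genes chosen after their values were seen are given as examples. *Fth1* was at 2919 CPM in the low, 5433 in the middle and 8473 in the high band, and *Ctsd* at 208, 497 and 747. *Ccl4* was at 180, 114 and 451 CPM, and *Cd209a*, a C-type lectin of monocyte-derived dendritic cells, at 11.3, 0 and 92.9, from 2, 0 and 21 UMIs. *H2-DMb1*, not used for ranking, had a high over low ratio of 2.89, and 2.78 in the second split. *Chil3* followed neither order, at 682, 962 and 310 CPM.

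**Figure D4:**
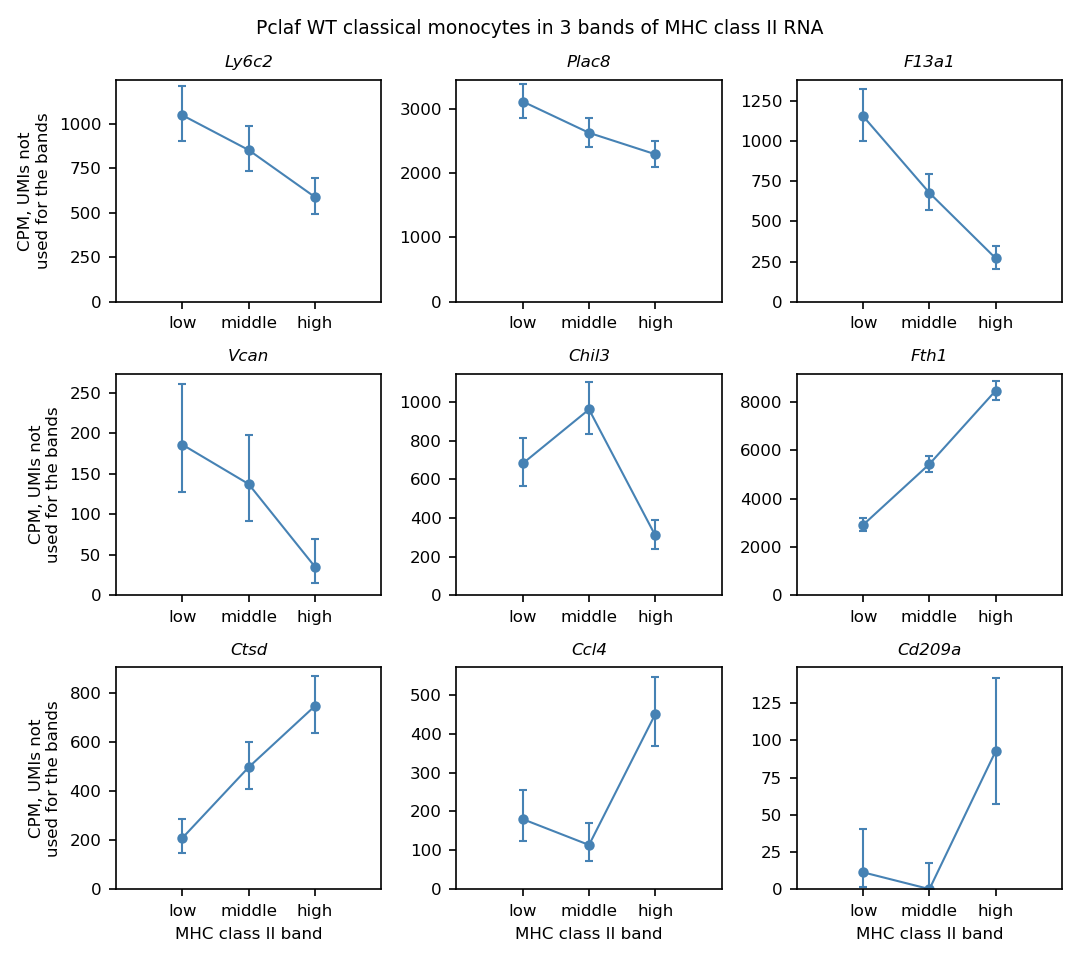
CPM of 9 genes, from UMIs not used for ranking, in low, middle and high bands of MHC class II RNA among 286 *Pclaf* WT classical monocytes (96, 95 and 95 cells), with 95% counting intervals. *F13a1* goes from 1155 to 270 CPM from the low to the high band while *Fth1* goes from 2919 to 8473; each axis starts at 0.

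Sex chromosome genes showed that each library held cells of both sexes, although the methods name male mice. In WT, 44 members had *Xist* and no Y gene, 134 a Y gene and no *Xist*, 5 both and 103 neither, and in KO the numbers were 14, 10, 2 and 5. The levels differed between these cells. In WT, *H2-Aa* had a UMI in 29 of the 44 *Xist* cells (65.9%, 50.1 to 79.5) and in 57 of the 134 Y cells (42.5%, 34.0 to 51.4), at median depths of 4365 and 3717 UMIs. The MHC class II list was at 7183 and 5865 CPM and the interferon-stimulated list at 4609 and 6335 CPM. Under 200 epithelial UMIs per 10000, the MHC class II list in KO was at 1992 CPM in 8 *Xist* cells and 849 CPM in 7 Y cells, both below either WT value. The interferon-stimulated list in the same KO cells was at 10070 and 6441 CPM, the opposite order to WT. The number of animals behind each set was not given in the sources used here, and the part of sex or animal in the library difference was not tested.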

How the data were processed

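Single-cell RNA of 2 mouse lung libraries was analysed, 1 per genotype. The authors deposited UMI counts per gene and barcode, raw and not normalized, made with Cell Ranger on GRCm38 (mm10) over 31053 genes; the submitters' processing notes name version 3.1.0 and the matrix headers 5.0.0. The WT matrix held 98171818 UMIs on 30669 barcodes and the KO matrix 111267567 on 17172. Members and gene lists were chosen with earlier results of these data known. Counts were summed over cells and given as CPM with exact Poisson intervals, shares with Clopper-Pearson intervals, and log2 ratios with the exact conditional interval, at 95%; 0.5 UMIs were added where 1 sum was 0. Genes with at least 10 expected UMIs in the smaller sum were compared, and 2-fold was the limit of size. Named genes are the 10 highest and lowest per comparison (with the same sign in KO between kinds), *Pclaf*, the rule genes and the listed genes, of which those that describe a list were given values; band genes and *Siglech* were chosen after their values were seen. Some listed genes are not reported here. Doublets were called with Scrublet in scanpy 1.11.5 and not removed from the main values. Alternatives changed the filters, the rule, the scaling (TMM, edgeR 4.0.16) and the minimum. Intervals and ratios were tested on simulated data. Python 3.11.15, numpy 2.4.6 and scipy 1.17.1 were used.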

Additional observations from a re-analysis of the deposited data

Results flagged for a closer look

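Between the genotypes, 4 ratios of WT and KO members over another myeloid kind went opposite ways past 2-fold, each with an interval on its own side of 0. The difference between the genotypes was not tested, since each has 1 library. *Il1a* over C1q macrophages was at log2 -2.27 in WT, from 8 against 266 UMIs, and 2.13 in KO, from 10 against 7 UMIs. *Cd209a* over nonclassical monocytes was at 1.33 in WT and -2.69 in KO. *Scgb1a1*, a club cell gene, was at -5.34 in WT and 5.32 in KO over nonclassical monocytes, and at -2.48 and 1.35 over *Spp1*-high macrophages. The 11 epithelial-rich KO members are part of the KO values. Single barcodes among them held 7669, 7233 and 1110 of the 16239 *Scgb1a1* UMIs in KO members. The 20 KO members under the limit held 130, or 1370 CPM against 58530 CPM over all KO members. The KO ratios of *Scgb1a1* thus rest on the epithelial-rich members.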

How the results depend on the processing

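The WT share of 0.947% was 1.07% with a mitochondrial limit of 10%, 1.18% with more than 500 genes per cell, 0.619% with at least 2 *Ly6c2* UMIs, 0.666% with 2 of the 3 markers, 0.668% after thinning to 1000 UMIs and 0.600% with *Csf3r*, *Cxcr2*, *Cldn5* and *Col1a1* also at 0. The KO share of 0.198% was 0.0965% after thinning and 0.128% without members at 200 or more epithelial UMIs per 10000, an alternative added after seeing the data. KO over WT, the 193 genes at least 2-fold higher and 766 lower were 93 and 458 with 2 of the 3 markers, 10 and 105 after thinning, 12 and 179 without epithelial-rich members, 73 and 375 with 20 expected UMIs, and 2881 and 3150 with no minimum. The higher were 102 without called doublets, and the lower 458 with the other denominator. With 20 expected UMIs, 566 genes were lower than in C1q macrophages, and 230 higher and 490 lower than in nonclassical monocytes. The log2 ratio of *Pclaf* reversed, to 0.49, with no *Spp1* limit, where KO held 20 and WT 61 UMIs; its cause was not tested. For the other main shares and counts, 49 alternative values stayed close to the main one. Medians of lists and single genes moved in 47 and stayed close in 320 alternative values. The KO over WT median ranged from -1.11 to 0.64 for classical monocyte genes and from -1.46 to 0.15 for interferon-stimulated genes. It reached 0.10 for chemokine and cytokine, 0.45 for cell cycle, and 0.05 for immediate early and heat shock genes. Epithelial markers fell from 3.87 to as low as 0.06, while macrophage maturation and MHC class II medians stayed negative. The 31 KO members, 20 without epithelial-rich ones, limit every KO value. No paired analysis was possible because each genotype has 1 library and the labels give no replicate numbers, and leaving out a library would leave no comparison.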

Other observations

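Along a second ranking of the 286 WT members, by macrophage maturation genes, classical monocyte genes did not all go the same way. In the high band against the low, *F13a1* had a log2 ratio of -1.20 (-1.15 in the second random split), whereas *Chil3* was at 0.47 (0.61). *Lyz2* was at 0.45 and 0.73, *Il1b* at 0.52 and 0.66, *Fcgr1*, an Fc receptor of macrophages, at 2.21 and 2.74, and *Cxcl2*, a neutrophil-attracting chemokine, at 3.77 and 3.48. *Fth1* was higher, at 1.57 and 1.59, as it was along the MHC class II bands.

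Some signals came from single cells. In WT members all UMIs of *Ccl24*, a chemokine of alternatively activated macrophages, lay in 1 cell, and 24 of 60 *Pclaf* UMIs in another.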
